A study of Mus musculus with 18 samples.

Results

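The potassium channel genes of the mouse were followed in single 2-cell embryos. A gene was taken as a member when its symbol in the platform annotation began with Kcn, followed by letters and a number. The noncoding transcript Kcnq1ot1 was left out, and each gene was represented by the probe set with the highest mean over the embryos among those naming that gene alone. This gave 91 genes of 19935 with such a probe set. Of these, 88 encode channel subunits or their auxiliary proteins and 3 are antisense transcripts (Kcnd3os, Kcnmb4os1 and Kcnmb4os2). For 3 genes (Kcna2, Kcnh8 and Kcnma1) there were 2 probe sets each, and the brighter was used.

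Each of 18 embryos was hybridized alone to an Affymetrix Mouse Gene 1.0 ST array, and its RNA was first amplified (NuGen WT-Ovation One-Direct). The study asked whether changed histone retention in sperm, as in fathers with disturbed poly(ADP-ribose) turnover, goes with altered gene expression in their embryos. Such sperm kept more histones in total, while single genes had more or fewer than in wild-type sperm. The paper reported significant overlaps with embryo expression mainly for genes with fewer histones. WT embryos came from 3 wild-type males (WT1, WT2 and WT3) and Parg(110)-/+ embryos from 3 males lacking both copies of the 110 kDa form of poly(ADP-ribose) glycohydrolase (PargA, PargB and PargC), with 3 embryos per father. All mothers were wild-type, all mice were of the 129SVE strain and matings were natural, so the embryos of the second group carried 1 Parg allele without exons 2 and 3 in every cell. An embryo is named by its father and number, as in PargB-1. Genotype belonged to the father here, which makes the 9 embryos of a genotype the offspring of only 3 males, and the embryo's own heterozygosity cannot be told apart from the father's sperm. The animals' ages are not given in the sources used here.

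Potassium channels let potassium leave or enter a cell along its electrochemical gradient and so set the resting membrane potential. Channels with 2-pore domains carry the background leak and inward rectifiers hold the potential near rest, whereas voltage-gated channels open on depolarization, and the Slo and SK families answer to calcium, sodium or pH. Many pore subunits need partners, among them silent modifiers that form no channel alone, beta subunits and calcium-binding interacting proteins. In oocytes and cleaving embryos potassium conductances are known for their part in membrane potential, cell volume and the cell cycle.

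Values are log2 levels from robust multichip averaging (RMA). A level of 1 probe set also depends on its probes, so the order of genes given here is an order of signals and not of transcript abundance. The median of the probe set means, 6.47, separated bright from background genes. The olfactory receptor genes, which serve the sense of smell, were used to read this line. The paper named olfactory receptors and ion channels among the genes raised in embryos and changed in sperm histone association. The olfactory receptor genes are thus a reference of mostly low signal and not a set known to be silent. Of 1027 olfactory receptor genes 50 (4.87%) were above it, and 95% of their means were under 6.46. Array medians were 6.34 to 6.49 in WT and 6.44 to 6.53 in Parg(110)-/+ embryos, and arrays correlated at 0.924 to 0.958. Defining markers of the stage were bright, with 10 of 10 oocyte and maternal genes and 5 of 5 measured 2-cell genes above the line. Blood markers were at background (0 of 5 above), and 2 of 8 cumulus, granulosa and oviduct markers, 3 of 9 spermatid and sperm markers and 1 of 6 neuronal markers (Tubb3) were above it. The mean level of the blood list was at most 5.17 in WT and 5.15 to 5.27 in Parg(110)-/+ embryos, that of the cumulus, granulosa and oviduct list 5.70 to 6.02 and 5.89 to 6.23, that of the spermatid list 5.59 to 6.00 and 5.76 to 5.94, and that of the neuronal list 6.02 to 7.02 and 6.28 to 7.13. Within the neuronal list Tubb3 had a mean of 10.11 and ran from 7.42 to 12.15, whereas the other genes had means of 5.27 to 6.35. The part of these markers in the results below was not tested. Parg itself was at 10.54 ± 0.41 (SD, n = 9) for wild-type fathers and at 10.23 ± 0.48 (SD, n = 9) for Parg(110)-/- fathers, a value that does not check the genotype, since the share of its probes inside the deleted exons is not known here. PargB-1 stood apart from the other embryos, with 157 probe sets at least 1 log2 unit below all other embryos against at most 56 elsewhere. In a whole embryo, fewer cells with a transcript and less RNA per cell cannot be told apart.

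Potassium channel genes were mostly at the background. Of the 91 members 32 (35.2%) were above the median, against 51.5% of all genes, and only Kcnk6 (1.10%) passed the 75th percentile of 7.80, against 24.4% of all genes. The means ran from 4.35 for Kcnj2 to 9.62 for Kcnk6, with a median of 6.25. Their spread was low as well. The median SD over 18 embryos was 0.153, beside 0.195 for all genes and 0.139 for olfactory receptors, and 2 members (2.20%), Kcnj13 and Kcnk5, exceeded the 95th percentile of the olfactory receptor SDs (0.475), which 20.8% of all genes did.

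**Figure D1:**
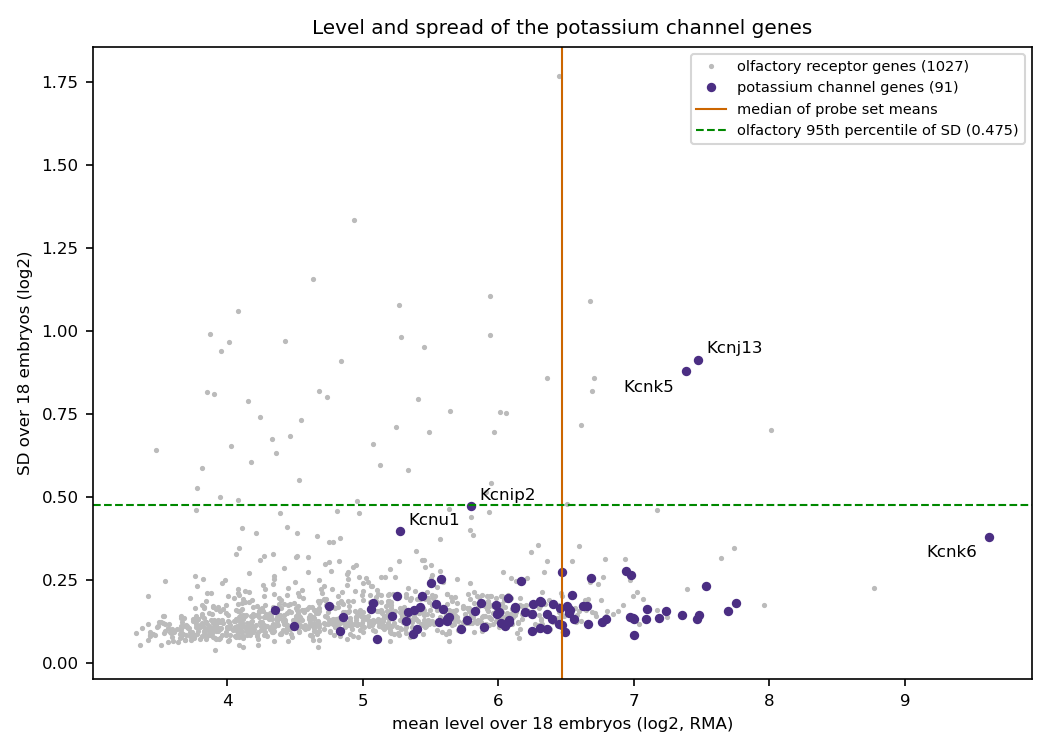
Each point is 1 gene, with its mean level over 18 embryos (x axis, log2 RMA) and its SD over the same embryos (y axis, log2), for 91 potassium channel genes (purple) and 1027 olfactory receptor genes (grey). Kcnk6 lies far to the right of the other members at 9.62, and of the members only Kcnj13 and Kcnk5 are above the dashed line at 0.475.

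The line itself cut through a crowded stretch, since 13 members lay within 0.1 log2 units of it. The last members inside were Kcng4 (6.51), which modifies voltage-gated channels, Kcna10 (6.50), a Shaker-type voltage-gated channel, and Kcnj15 (6.49), an inward rectifier. The first members outside were Kcnd3 (6.47), a pore subunit of the transient outward current, Kcna2 (6.47), a Shaker-type channel, and Kcnk13 (6.45), a 2-pore-domain channel. For such genes a level above the median says little. For each of the 21 brightest members 18 of 18 embryos lay above it, except Kcnj13 (14 embryos) and Kcnk5 (15 embryos). This follows from means that are high beside their SDs, since the members were ranked by the same values. Olfactory receptor genes reached such levels too, as Olfr314 at 7.96 ± 0.18 and Olfr411 at 7.24 ± 0.16 (SD, n = 18). The count of embryos therefore does not show expression.

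The 2-pore-domain channels had 8 of 14 members above the median. Kcnk6, a weakly inward rectifying leak channel, had the highest mean over the 18 embryos. In WT embryos it ranged from 9.19 to 10.19 with a median of 9.57, and in Parg(110)-/+ embryos from 9.02 to 10.26 with a median of 9.43. The groups overlapped over nearly their whole range, and the lowest values were those of PargB-1 (9.02) and PargC-3 (9.04). Behind it came Kcnk15 (7.48), a relative of the acid-sensitive leak channels that gives no current alone, Kcnk3 (7.47), an acid-sensitive leak channel, and Kcnk5 (7.39), a leak channel opened by alkaline pH and cell swelling. Kcnk12 (7.00), a silent relative of the halothane-inhibited channels, Kcnk4 (7.00), a mechanosensitive channel, Kcnk16 (6.99), an alkaline-activated channel of the pancreas, and Kcnk1 (6.80), a weak leak channel, made up the rest. Kcnk15, Kcnk3, Kcnk12, Kcnk4, Kcnk16 and Kcnk1 had SDs of 0.0846 to 0.145 over the embryos.

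Kcnk5 was different, with an SD of 0.88. In WT embryos it ranged from 6.39 to 8.44 with a median of 7.12, and in Parg(110)-/+ embryos from 6.27 to 9.89 with a median of 7.30. The top value belonged to PargC-3 and lay 1.45 above that of the next embryo, whereas 3 embryos were under the background line. Its promoter is shown because Kcnk5 was 1 of the 2 members with a large spread between embryos and because its base composition differs from that of the other, Kcnj13. The window of 300 bases spans the annotated start (RefSeq, GRCm38.p6, minus strand, chr14:20181733-20182032), and capitals mark CG dinucleotides.
Kcnk5: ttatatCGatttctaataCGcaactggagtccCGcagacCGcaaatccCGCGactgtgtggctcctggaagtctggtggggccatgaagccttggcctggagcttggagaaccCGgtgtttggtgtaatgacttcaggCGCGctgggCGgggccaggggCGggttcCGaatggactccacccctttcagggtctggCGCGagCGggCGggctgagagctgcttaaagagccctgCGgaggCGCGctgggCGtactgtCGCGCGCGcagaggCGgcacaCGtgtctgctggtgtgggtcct
This window held 26 CG dinucleotides and 3 matches to GGGCGG on either strand, and no TATAAA.

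The inward rectifiers had 5 of 15 members above the median. Kcnj13, an inward rectifier of epithelia such as retinal pigment epithelium and choroid plexus, led them at 7.47 and had the largest SD of all members, 0.91. The WT embryos read 7.74, 7.76, 7.49 (father WT1), 6.29, 7.71, 8.90 (WT2), 8.75, 8.18 and 7.98 (WT3). The Parg(110)-/+ embryos read 8.42, 6.20, 6.63 (PargA), 6.18, 8.61, 6.36 (PargB), 6.83, 6.87 and 7.58 (PargC). With the second lowest WT value, 7.49, taken as a cut, 3 of 9 Parg(110)-/+ embryos were at or above it, with 1 such embryo in each family. That 8 of 9 WT embryos were is fixed by this choice of cut, so the contrast is no test. The groups overlapped. Its promoter (RefSeq, GRCm38.p6, minus strand, chr1:87394680-87394979), again with CG dinucleotides in capitals, was of another kind.
Kcnj13: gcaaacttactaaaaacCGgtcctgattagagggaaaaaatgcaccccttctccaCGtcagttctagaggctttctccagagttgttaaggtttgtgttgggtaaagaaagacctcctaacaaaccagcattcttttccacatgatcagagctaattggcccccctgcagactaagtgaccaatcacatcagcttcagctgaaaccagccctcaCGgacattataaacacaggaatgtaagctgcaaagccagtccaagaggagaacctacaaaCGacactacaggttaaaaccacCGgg
It held 5 CG dinucleotides, no GGGCGG and a TATAAA match. Kcnj13 lies inside the annotated span of Gigyf2, a gene of translational control that measured 10.33 ± 0.19 (SD, n = 18). Whether unspliced Gigyf2 RNA reaches the Kcnj13 probes was not tested. The other bright inward rectifiers were Kcnj11 (7.09), the pore of the ATP-sensitive channel, and Kcnj14 (6.69), Kcnj4 (6.53) and Kcnj15 (6.49). Kcnj2, the classical strong inward rectifier of muscle and heart, was the dimmest member.

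Promoters of 69 of the 91 members were found in the RefSeq table, 94 windows in all, and Kcnk6 was not among them. Members above the median had 24 windows of 22 genes, and the other members 70 windows of 47 genes. Windows of members above the median held a median of 14.5 CG dinucleotides, those of the other members 9 and those of all 32851 promoters 7. These medians are over windows, so a gene with several windows counts more than once. The motif GGGCGG, searched on both strands, was present in 58.3%, 44.3% and 35.7% of these windows and TATAAA, also on both strands, in 8.33%, 4.29% and 13.6%. A match describes letters only, and windows of 1 gene overlap in part.

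**Figure D2:**
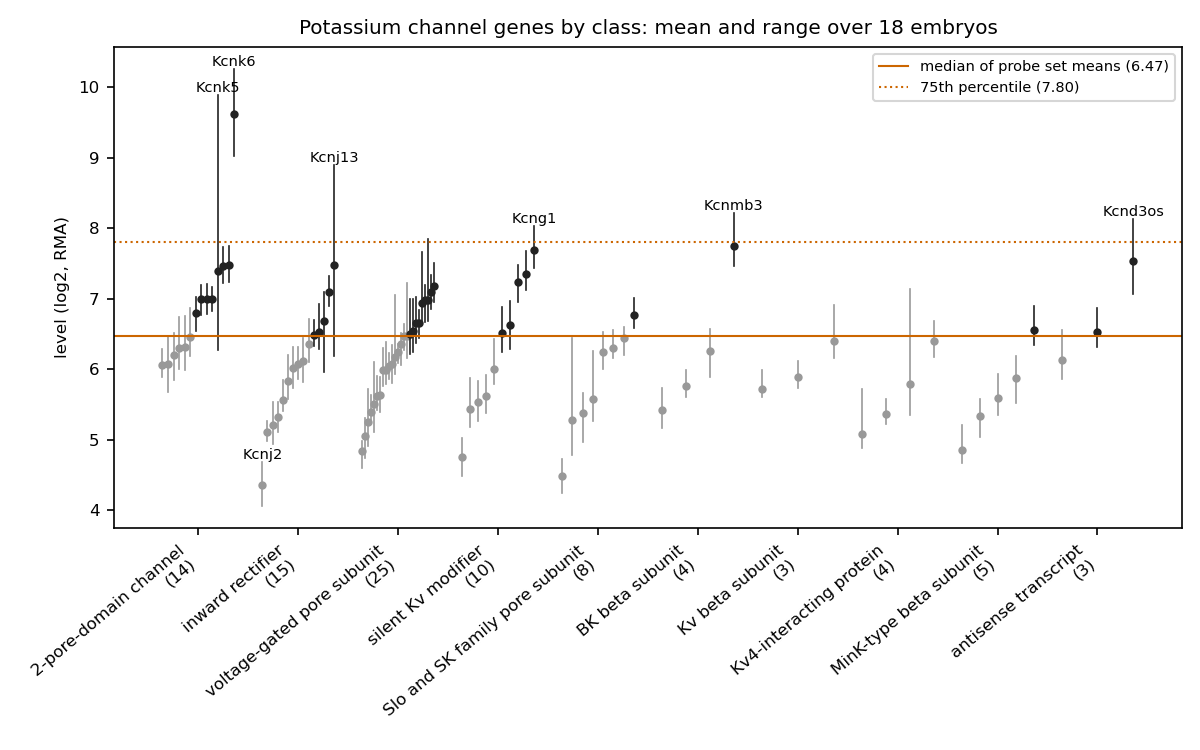
Points are the means of the 91 members over 18 embryos and vertical lines their lowest to highest embryo (y axis, log2 RMA), grouped by class with the number of genes in parentheses, black above and grey not above the median. The 2-pore-domain channels reach 9.62 with Kcnk6, and long lines mark Kcnk5 and Kcnj13.

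The voltage-gated pore subunits had 9 of 25 members above the median, all between 6.50 and 7.18. Kcna3, a Shaker-type channel known from lymphocytes, was the brightest (7.18), followed by Kcnh3 (7.10) and Kcnh4 (6.97) of the Elk group, Kcnq1 (6.98), an imprinted cardiac and epithelial channel, and Kcnh1 (6.95), the ether-a-go-go channel known from the cell cycle of tumour cells. Kcnh2, the channel of the rapid cardiac repolarizing current, measured 6.66, Kcnh8 6.65, Kcna7 6.54 and Kcna10 6.50. Among the 10 silent modifiers 5 were above the line, namely Kcng1 (7.69), Kcng2 (7.35), Kcns3 (7.24), Kcnv2 (6.62) and Kcng4 (6.51). These modifiers form no channel alone and act only together with pore subunits.

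The Slo and SK families had 1 of 8 members above the median, Kcnn1 (6.77), a small-conductance calcium-activated channel. Of the 4 BK beta subunits Kcnmb3 was the brightest after Kcnk6 (7.75). It overlaps the annotated Pik3ca gene, which measured 7.36 to 10.3, whereas the BK pore gene Kcnma1 was at 5.38. Among the 5 MinK-type subunits only Kcne1l was above (6.56), and 0 of 3 Kv beta subunits and 0 of 4 Kv4-interacting proteins were. The antisense transcript Kcnd3os was bright too (7.53), and Kcnmb4os1 measured 6.52. Their sense genes Kcnd3 (6.47) and Kcnmb4 (6.26) were not above the line. The stretches they share were not separated here, so each pair is uncertain.

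No member differed between the genotypes after adjustment. With limma over all 28815 probe sets, 0 of 91 members passed an adjusted p under 0.1, as did 0% of all probe sets, and the smallest adjusted p of a member was 0.362. For 0 members did the groups fail to overlap (0.0104% of all probe sets). At an unadjusted p under 0.05 there were 11 members, all higher in Parg(110)-/+ embryos, or 12.1% of the members. Of all probe sets 8.96% were higher and 1.51% lower at that threshold, so the count over all members was near the background on the deposited scale. By level it was 7 of 32 members above the median (21.9%), beside 10.4% of all probe sets above it. When only the probe sets above the median were fitted, it was 5 of these 32 members, beside 9.27% of those probe sets. Among members not above the median it was 4 of 59 (6.78%), beside 10.6% of all such probe sets. The single direction depended on the scale. With all array medians set equal 7 of 11 such members were higher, beside 45.9% of the 1792 such probe sets (6.22% of all probe sets), and with a second quantile normalization 8 of 12 were, beside 67.5% of 1820 (6.32%).

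The differences of the members were small and mostly of 1 sign. On the deposited scale 84 of 91 were higher in Parg(110)-/+ embryos, against 67.1% of all probe sets and 75.6% of those not above the median, but 53 of 91 were with all array medians set equal and 58 with a second quantile normalization. The median difference was 0.08 log2 units beside 0.05 for all probe sets, and became 0.02 under each rescaling, beside -0.0051 for all probe sets with equal medians and 0.0146 with the second quantile normalization. Without PargB-1 there were 83 higher members, with a median difference of 0.06. All 25 voltage-gated pore subunits and all 8 Slo and SK genes had positive differences on the deposited scale. The 7 members with negative values were Kcnj13, Kcnip2, Kcne1, Kcnv2, Kcnk6, Kcnj3 and Kcnip4. Only Kcnj13 and Kcnk5 differed by more than 0.3.

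**Figure D3:**
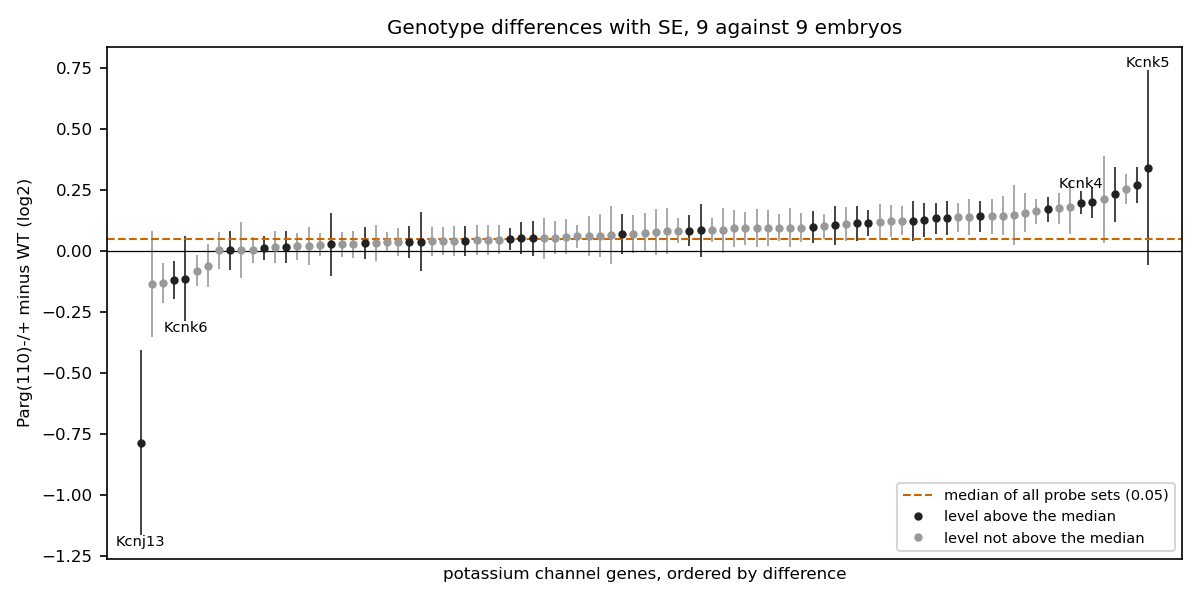
Points are the 91 members ordered by their difference between 9 Parg(110)-/+ and 9 WT embryos (y axis, log2) with the standard error of the limma fit, black for members above the median level and grey for the others. Most points lie just above 0 near the dashed median of all probe sets (0.05), Kcnj13 lies apart at -0.79 and Kcnk5 at 0.34, and none passed the adjusted threshold.

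Kcnj13 was lower in Parg(110)-/+ embryos by the largest amount, 7.08 ± 0.92 (SD, n = 9) against 7.86 ± 0.76 (SD, n = 9), a difference of -0.79 ± 0.38 (SE) with an unadjusted limma p of 0.0534 and an adjusted p of 0.483. Only 2 of 9 Parg(110)-/+ embryos were above the WT mean. Against the same 9 WT embryos the families PargA, PargB and PargC differed by -0.78, -0.81 and -0.77, each with a standard error of 0.57 (adjusted p = 0.997, 0.572 and 0.853), and these values share their controls. The difference was -0.98 without WT2-1, the only WT embryo near background, and -0.57 without father WT3.

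Kcnk5 measured 7.56 ± 1.05 (SD, n = 9) in Parg(110)-/+ and 7.22 ± 0.69 (SD, n = 9) in WT embryos, a difference of 0.34 ± 0.40 (SE, limma, adjusted p = 0.759). Its sign rested on family PargC, which was 1.30 ± 0.47 (SE) above WT (adjusted p = 0.572), and the difference was -0.14 without that father. Kcnk6 differed by -0.11 ± 0.18 (SE, limma, adjusted p = 0.823), and this sign turned without father WT1 (0.0037) or without father PargB (0.0108).

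**Figure D4:**
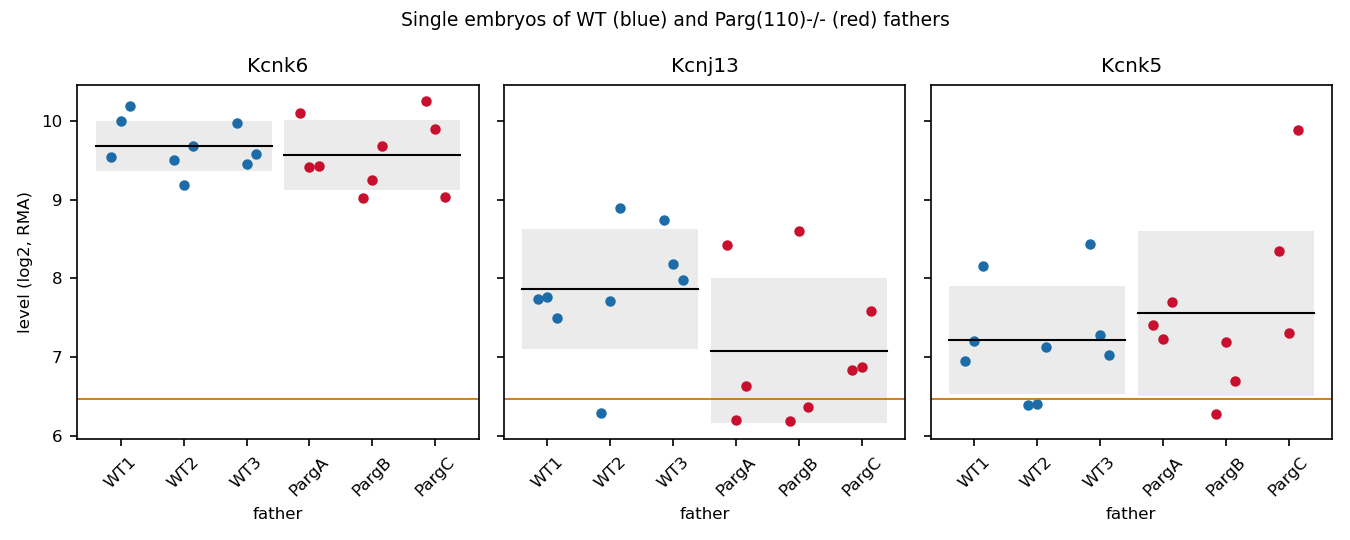
Each point is 1 embryo under its father (x axis), blue for WT and red for Parg(110)-/- fathers, with its level (y axis, log2 RMA), the group mean as a black line, 1 SD as a grey band and the median of probe set means in orange. Kcnk6 stays between 9.02 and 10.26 in all families, Kcnj13 is low in 1 WT embryo (WT2-1, 6.29) and in several Parg(110)-/+ embryos, down to 6.18, and PargC-3 leads Kcnk5 at 9.89.

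The members with the smallest p were low in size. Kcnk4 ranged from 6.78 to 6.98 with a median of 6.90 in WT and from 6.94 to 7.21 with a median of 7.13 in Parg(110)-/+ embryos. The difference was 0.20 ± 0.05 (SE, limma, adjusted p = 0.362), and 0.14 with equal array medians. On the deposited scale 9 of 9 Parg(110)-/+ embryos were above the WT mean although the groups overlapped. Kcnk4 was picked by its p in this same comparison, so that count is no further evidence. Kcnv1, a silent modifier (5.54, 0.25 ± 0.06), Kcna7, a Shaker-type channel (6.54, 0.27 ± 0.07), Kcnk1 (0.17 ± 0.05), Kcnh3 (0.20 ± 0.06) and Kcnmb2, an inactivating BK beta subunit (5.77, 0.16 ± 0.05), had the same adjusted p. Kcne4 (0.18 ± 0.06), a suppressor of voltage-gated channels, Kcnd2 (0.14 ± 0.06), a pore subunit of the transient outward current, Kcng2 (0.14 ± 0.06) and Kcnh2 (0.12 ± 0.05) followed, with adjusted p of 0.395 to 0.467. Kcnv1, Kcnmb2, Kcne4 and Kcnd2 were background genes.

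By family no member was called either, against 0% of all probe sets for PargA, 0.0139% for PargB and 0.0104% for PargC. On the deposited scale 5 of 91, 19 of 91 and 9 of 91 members were at an unadjusted p under 0.05, beside 5.32%, 12.8% and 7.24% of all probe sets. The share of members for PargB was thus above that of all probe sets. Of these members 4, 19 and 8 were higher than in WT embryos. Between the 3 fathers of a genotype limma's F test called no member in WT (0% of all probe sets, smallest adjusted p of a member 0.969) and none in Parg(110)-/+ embryos (0.00347%, smallest adjusted p 0.929). At an unadjusted p under 0.05 it gave 0 of 91 members in WT, beside 4.09% of all probe sets, and 5 of 91 in Parg(110)-/+ embryos, beside 4.36%.

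Single-embryo peaks were rare among the members. A peak was a gap of at least 1 log2 unit between the highest embryo and the next. Only Kcnk5, in PargC-3, had one (1 of 91), against 5.93% of all probe sets, 4.35% of those above the median and 7.52% of those not above. PargC-3 held 131 peaks of the whole array, where the 18 embryos held 66 to 140 each. Set against the 9 WT embryos, Kcnk5 in PargC-3 was higher by 2.67 ± 0.67 (SE), which missed the threshold (limma, adjusted p = 0.214) with WT embryos that themselves spread over more than 2 log2 units. Without WT3-1, the brightest WT embryo for this gene, the difference was 2.83, and only there, in 1 of 12 alternatives, was the threshold passed. Over the 12 alternatives the difference ran from 2.57 to 2.83. With a smaller gap, a ratio of 1.5, Kcnq1 (PargA-3), Kcna1 (PargB-1) and Kcnu1 (PargC-2) joined Kcnk5, against 11.9% of all probe sets.

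Each Parg(110)-/+ embryo was next tested against the 9 WT embryos, and each WT embryo against the other 8. Over all probe sets the share called was 0.628%, 0.635%, 0.604% (PargA), 2.17%, 0.691%, 0.826% (PargB), 0.76%, 0.625% and 0.843% (PargC). For the WT embryos this share was 0.732%, 0.479%, 0.708% (WT1), 0.93%, 0.68%, 0.6% (WT2), 1.15%, 0.732% and 0.569% (WT3). PargB-1 had the highest share of the 18 embryos. Members gave 2 calls over the 9 Parg(110)-/+ embryos (0.244% of 819 values) and 4 over the 9 WT embryos (0.488% of 819 values), all of them higher in the single embryo. Both shares were below those of all probe sets, 0.865% and 0.731%, and without PargB-1 there was 1 call in 8 Parg(110)-/+ embryos.

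The calls in Parg(110)-/+ embryos were in voltage-gated pore genes. By its mean over 18 embryos Kcna1 was a background gene (6.17), whereas Kcnq1 was above the median (6.98). Kcna1, a Shaker-type channel of axons, measured 5.94 to 6.27 in WT embryos and 7.05 in PargB-1, a difference of 0.97 ± 0.13 (SE, limma, adjusted p = 0.00424). The other 8 Parg(110)-/+ embryos were at 6.30 or lower, so PargB-1, the embryo that stood apart on the whole array, was alone. Kcnq1 measured 6.69 to 7.11 in WT embryos and 7.85 in PargA-3, a difference of 0.99 ± 0.15 (SE, limma, adjusted p = 0.0251), with the next embryo at 7.21.

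The calls in WT embryos were in a pore gene of the transient outward current, a small-conductance channel and interacting proteins. Kcnip4 reached 5.72 in WT2-3, 0.69 above the other WT embryos (limma, adjusted p = 0.0394), and Kcnn2 reached 6.26 in WT2-1, 0.81 above them (adjusted p = 0.0425). Kcnip2, which modulates the Kcnd pore subunits, reached 7.14 in WT1-3, 1.44 ± 0.27 (SE) above them (adjusted p = 0.0826), and Kcnd3 reached 7.02 in WT1-2, 0.71 above them (adjusted p = 0.0839). These calls of Kcnip2 and Kcnd3 were lost in 7 and 9 of 10 alternatives, among them equal array medians (adjusted p = 0.109 and 0.113). Kcnip2 had a second high embryo in the other group, PargA-3 at 6.79, as did Kcnd3 with PargB-1 at 7.22. Kcnu1, the sperm-specific pH-gated channel, reached 6.44 in PargC-2 without passing the test (1.27 ± 0.31, adjusted p = 0.252) and measured at most 5.80 in the WT embryos.

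**Figure D5:**
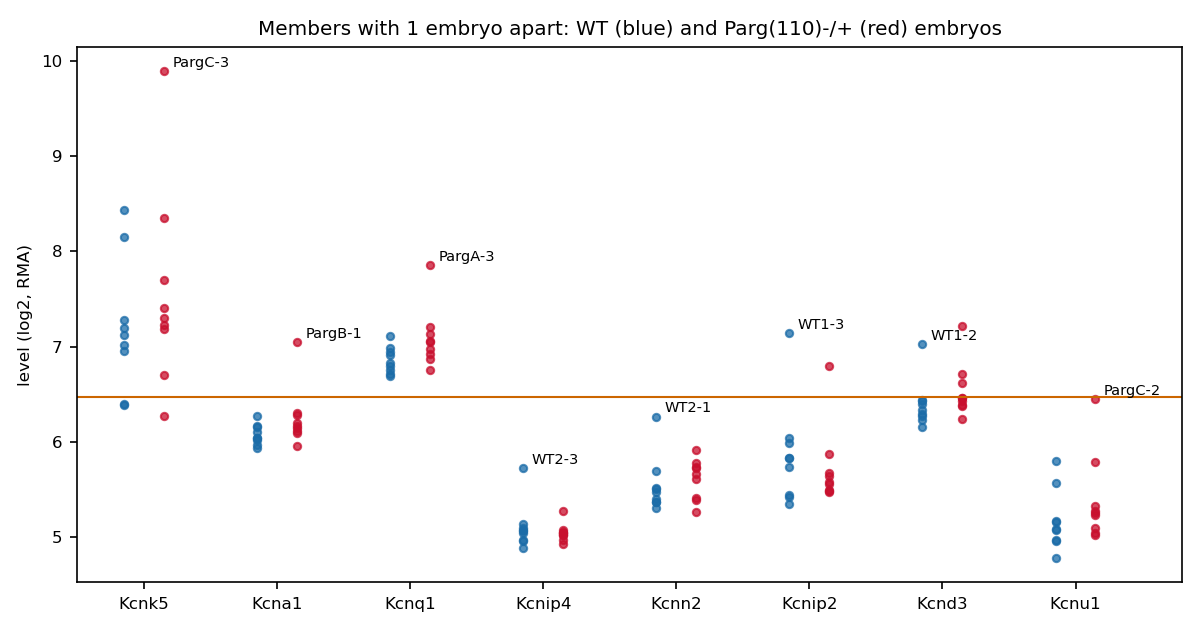
Points are the levels (y axis, log2 RMA) of 8 members in 9 WT (blue) and 9 Parg(110)-/+ (red) embryos, with the embryo tested named, and the orange line marks the median of probe set means. Kcna1 in PargB-1 (7.05) and Kcnq1 in PargA-3 (7.85) are apart from all other embryos, and the remaining calls are in WT embryos, while Kcnk5 in PargC-3 and Kcnu1 in PargC-2 were not called.

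The embryos with low Kcnj13 and Kcnk5 were read beside the stage markers, a comparison chosen after the values were seen. The mean level of the 5 measured 2-cell genes ran from 9.29 to 10.83 in WT and from 9.18 to 10.70 in Parg(110)-/+ embryos. WT2-1 and PargB-1 had the highest values of their groups, and also the highest means of the 10 oocyte and maternal genes (10.98 and 10.97). The same 2 embryos were the lowest of their group for Kcnj13 (6.29 and 6.18) and for Kcnk5 (6.39 and 6.27). For Kcnj13 other embryos did not follow this order. Kcnj13 was also low in PargA-2 (6.20) and PargB-3 (6.36), whose 2-cell means were 9.77 and 9.51, and PargB-2, with a 2-cell mean of 10.46, had the highest Kcnj13 of its group (8.61). For Kcnk5 the families of WT2-1 and PargB-1 had the lowest means, 6.64 for WT2 and 6.72 for PargB. The other families had Kcnk5 means of 7.43 to 8.51. The part of the stage in these levels was not tested.

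Other genes of potassium and cation transport gave no call between the genotypes. In the sodium-potassium pump, which builds the potassium gradient, 6 of 11 measured genes were above the median, led by the beta subunit Atp1b3 (10.54) and the regulator Fxyd6 (9.65). On the deposited scale 10 of these 11 were higher and 1 lower in Parg(110)-/+ embryos with 0 called, where 67.1% of all probe sets were higher. Of 6 cation-chloride cotransporters 3 were above, Slc12a2, the sodium-potassium-chloride cotransporter, at 11.58. Among 14 partners of potassium channels 7 were above the median, the calmodulin gene Calm2 at 12.81 and the ubiquitin ligase scaffold Cul3 at 12.39. Kcnrg, a potassium channel regulator at background (5.18), had the largest difference of these partners, 0.58 ± 0.24 (SE, limma, adjusted p = 0.444).

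Of 9 hyperpolarization-activated and cyclic nucleotide-gated channel genes 4 were above the median, with Cngb1 at 7.73 and Hcn2 at 6.67, and Hcn3, a pacemaker channel, had the smallest p (0.24 ± 0.06, limma, adjusted p = 0.362). Of 17 voltage-gated calcium channel genes 5 were above, Cacna1h, a low-threshold channel, being the brightest at 7.29. Of 12 voltage-gated sodium channel genes 0 were. No gene of these 3 families passed an adjusted p under 0.1. On the deposited scale 7 of 9, 12 of 17 and 12 of 12 genes respectively had positive differences, beside 67.1% of all probe sets. Counts after rescaling are not given here for these lists.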

How the data were processed

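One array (Affymetrix Mouse Gene 1.0 ST) was run per embryo. The deposited values are log2 levels that the authors made with RMA in Partek. Their versions, the genome build and the scan batches are not given in the sources used here. RMA includes quantile normalization, which can hide a change shared by most genes, and compresses dim probe sets.

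All 28815 probe sets were tested. The annotation names 1 gene for 21780, several for 1605, and does not list 5430. Entrez identifiers matched RefSeq (GRCm38.p6) for 91 of 91 members. Two-sided tests came from limma 3.58.1 (R 4.3.3, lmFit, then eBayes). Their p-values were adjusted over the whole table by Benjamini-Hochberg and called under 0.1, the study's threshold. The genotype fit set 9 against 9 embryos, the family fit 3 embryos of each Parg(110)-/- father against 9 WT embryos with a shared spread, and the single-embryo fit 1 embryo against WT embryos, assuming that it varied like them. The code was tested on simulated data. The consensus correlation within fathers was -0.023. Precision is limited by the number of arrays.

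Genes that could be named were members above the median (up to the 30 brightest), called members, those with a peak, the 10 smallest p, 3 on each side of the median, and the 2 brightest and 2 smallest p of each list. Kcnu1 and some other background genes were named after their values were seen. The members and lists were chosen with earlier results of these data known. Alternatives were rescaling, array weights, the father as a block or as means, filters, other thresholds, and leaving out each embryo or father.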

Additional observations from a re-analysis of the deposited data

Results flagged for a closer look

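In groups of 9 embryos a value was marked when its gap to the nearest embryo passed Dixon's 95% critical value as a share of the group's range. Of 182 groups of members 23 had such an embryo (12.6%), beside 13.5% of the same groups of all probe sets, where chance gives about 1 in 20. Of these embryos 19 were the highest and 4 the lowest of their group. The 88 groups of the 44 members named or eligible to be named held 14, all of them the highest of their group. Some of these members were eligible because 1 embryo was high, so this direction was partly set by the choice. In Parg(110)-/+ embryos these were Kcng2 at 7.68 and Kcnmb4os1 at 6.87 in PargC-1. In PargA-3 they were Kcnq1 at 7.85, Kcnj4 at 6.93 and Kcnip2 at 6.79. In PargB-1, the embryo that stood apart on the whole array, they were Kcnd3 at 7.22 and Kcna1 at 7.05, and in PargB-3 Kcnip4 at 5.27. In WT embryos they were Kcnh1 at 7.66 in WT3-1, Kcnh8 at 7.03 and Kcnip2 at 7.14 in WT1-3, Kcnd3 at 7.02 in WT1-2, Kcnn2 at 6.26 in WT2-1 and Kcnip4 at 5.72 in WT2-3. Causes were not tested.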

How the results depend on the processing

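Under all alternatives run, 0 members were called between genotypes, in families or between fathers. No paired analysis was possible because the embryo numbers only count embryos within a father. The number of higher members fell from 84 to 53 with equal array medians, and 29 of 32 were higher when only probe sets above the median were tested. Their median difference was 0.0187 with equal array medians, 0.0239 with a second quantile normalization and 0.0451 without father PargB. Members at an unadjusted p under 0.05 numbered 6 on means per father, 7 without father WT3, 19 without father PargA and 5 without father PargB. They numbered 8 to 17 with each embryo left out in turn (17 without WT1-2). With only probe sets above the median there were 5 of 32, beside 7 of the same 32 in the fit to all probe sets. The difference of Kcnk6 turned to 0.0037 without father WT1 and 0.0108 without father PargB, and that of Kcnk5 to -0.135 without father PargC. Calls of members in single Parg(110)-/+ embryos ranged from 1 to 3 around the 2 reported, with 1 when only probe sets above the median were tested, which leaves Kcna1 out, and 3 with a second quantile normalization, among others. Kcna1 in PargB-1 and Kcnq1 in PargA-3 stayed under an adjusted p (limma) of 0.1 in all alternatives run (0.00335 to 0.0109 and 0.0132 to 0.0805). Kcnip2 in WT1-3 (0.0802 to 0.137) and Kcnd3 in WT1-2 (0.0942 to 0.158) missed the threshold in 7 and 9 of 10 alternatives. With the 75th percentile as the line 1 member was above it, and with peak gaps of a 1.5 ratio and of 2 log2 units there were 4 and 0 members with a peak. Where the cause of a move is not named it was not tested. The array's log2 values near background and 3 fathers per genotype limit what could be seen.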
